A study of Mus musculus with 6 samples.

Results

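Cadherins are calcium-dependent adhesion proteins of the cell surface. Here their transcripts were described in nuclei of Foxp2-positive neurons sorted from the medial prefrontal cortex (mPFC) of mice. The members were the rows of the deposited count table whose symbol is Cdh or Pcdh followed by a number, with or without a final x, so that they hold the classical cadherins, a few divergent cadherins and the protocadherins that lie outside the Pcdh gene clusters. There were 35 such genes among 24421 in the table, and 26 of them passed the filter on low counts that left 13560 genes for testing.

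The libraries came from Foxp2-Cre mice that carried an AAV (adeno-associated virus) expressing GFP joined to a KASH domain, which holds the protein at the nuclear envelope, 4 weeks after injection into both hemispheres. There were 3 libraries from mice given CFA, which is read here as complete Freund's adjuvant and which causes lasting inflammation, and 3 from mice given saline, and both groups carried the same Cre allele and virus. Each library was made from 10000 nuclei, and values of single libraries are given in the order of replicates 1 to 3. The age and sex of the mice, the site and time of the CFA or saline treatment and the number of mice behind each library are not stated in the labels. As the labels do not say whether replicates came from separate mice, p-values reflect only how far these libraries scatter, and that scatter may be technical. Labelling depends on Cre expressed from the Foxp2 gene, and no unsorted library was analysed here.

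Classical cadherins hold cells together by binding like molecules on the neighbouring membrane, and their cytoplasmic tails bind catenins, which link them to actin. Type I and type II cadherins differ in the outermost domain that carries the adhesive contact. Non-clustered protocadherins have longer ectodomains and weaker adhesion, lack the catenin-binding tail and signal through other partners. In the cerebral cortex the combination of cadherins and protocadherins differs between layers and neuron classes, and the proteins act in axon growth, synapse formation and dendritic spines.

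Total counts were 9673038 to 11850741 per library. Of the markers of the labelled class, Foxp2 was at 34.9, 24.0 and 28.5 CPM (counts scaled to a common library total) in replicates 1 to 3 with CFA and at 28.3, 29.3 and 43.7 CPM with saline, and all 8 markers of corticothalamic neurons passed the filter. These 8 markers summed to 960 to 1080 CPM with CFA and 898 to 1320 CPM with saline, and 7 of them were lower and 1 higher with CFA. Ntsr1 was the 1 with an unadjusted p under 0.05 in edgeR's test. It was at 15.6, 11.6 and 14.8 CPM with CFA and at 21.4, 22.8 and 18.7 CPM with saline, without overlap. Markers of other cells were present as well. Layer 5 markers summed to 531 to 629 CPM with CFA and 591 to 668 CPM with saline, and astrocyte markers to 465 to 655 and 468 to 538 CPM. Oligodendrocyte markers summed to 300 to 464 and 336 to 412 CPM, and inhibitory neuron markers to 115 to 186 and 119 to 176 CPM. Of 8 astrocyte markers 4 were higher and 4 lower with CFA, and 3 of the higher ones had an unadjusted p under 0.05 in edgeR's test. All 6 layer 5 markers were lower with CFA, 0 of them with an unadjusted p under 0.05 in that test. Microglia markers summed to 24.7 to 49.5 CPM with CFA and 18.5 to 32.1 CPM with saline. Of 7 microglia markers 6 were higher and 1 lower with CFA, and Csf1r, higher, had an unadjusted p of 0.0131 in edgeR's test. Summed over 10 markers of striatal projection neurons, the level was 290 to 488 CPM with CFA and 397 to 1020 CPM with saline, with saline replicate 1 at 1020 CPM apart from the other 5 libraries. Of the 9 tested striatal markers all had a negative log2 fold change (CFA minus saline), and 6 had an unadjusted p under 0.05 in edgeR's test, against 3.22% of all genes. Layer 6b markers summed to 121 to 196 CPM with CFA and 198 to 310 CPM with saline. Upper layer markers summed to 441 to 495 and 366 to 412 CPM, and oligodendrocyte precursor markers to 26.1 to 39.3 and 18.1 to 23.3 CPM. The groups did not overlap in these last 3 sums, but single genes (Ctgf, Lamp5 and Olig1) held most of each. Negative log2 fold changes were found for 4 of 5 tested layer 6b markers. Positive ones were found for 5 of 7 upper layer and 3 of 5 tested precursor markers. Of the precursor markers, 2 higher ones (Gpr17 and Olig1) and 0 lower ones had an unadjusted p under 0.05 in edgeR's test. Cspg4, a precursor marker that went the other way, was lower in every CFA library than with saline. The part of these marker differences in the results on cadherins was not tested. Saline replicate 3 stood apart in the counts of all genes, where chi-square divided by its degrees of freedom was 22.1 to 45.9 against the other libraries and 16.4 to 27 among those. Without it 0 members were called. In libraries made from many nuclei, fewer cells of a type and less RNA per cell cannot be told apart.

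Levels differed far more from member to member than from group to group. To compare genes, CPM was divided by the exon length of the gene model, giving CPM per kb, a scale that depends on which exons the model holds. On this scale Cdh13 was the highest at 121 ± 22.7 CPM per kb (SD, n = 6 libraries), followed by Pcdh9 at 89.3 ± 12.7 and Cdh11 at 56.1 ± 3.82. These 3 genes made up 57.4% of the summed level of all members, and with the next 5 (Cdh2, Cdh10, Pcdh7, Pcdh17 and Pcdh8) the share was 78.7%. The median over all genes tested was 10.1 CPM per kb, and 11 of the 26 tested members lay above it.

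In the order of levels per kb, the ranges over the 6 libraries did not overlap at 2 of the 25 steps between neighbours, from Pcdh9 to Cdh11 and from Cdh11 to Cdh2. At the other 23 steps, Cdh13 against Pcdh9 among them, neighbours overlapped and their order is not fixed by these libraries. After Cdh2, at 24.4 ± 3.33 CPM per kb, came Cdh10, Pcdh7, Pcdh17, Pcdh8, Cdh8, Cdh6 and Pcdh10, between 20.1 and 11.8. Cdh18, Cdh22, Pcdh19, Cdh9 and Pcdh1 lay between 9.32 and 5.95 CPM per kb. Pcdh11x, Cdh12, Cdh7, Cdh20, Cdh4, Cdh15 and Pcdh20 lay between 3.19 and 1.50. Cdh24, Pcdh15 and Pcdh18 were the lowest tested members, at 0.970, 0.588 and 0.522 CPM per kb.

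**Figure D1:**
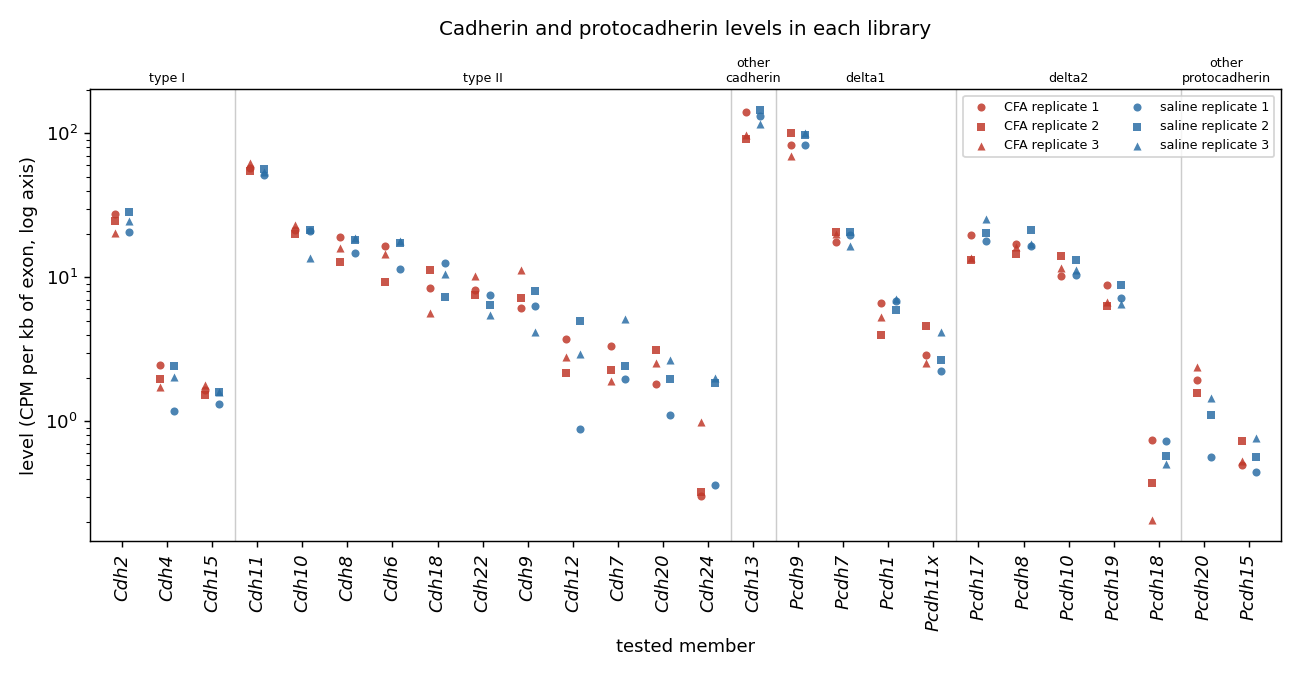
Level of each tested member in each library, as CPM per kb of exon on a log axis, by subfamily. Red marks are CFA and blue marks saline libraries, and the marker shape gives the replicate; Cdh13, Pcdh9 and Cdh11 are at the top, and the spread within a member is small against the distance from them to the lowest members.

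CFA and saline libraries were compared to ask which of these adhesion genes differ in the sorted neurons between mice given the inflammatory agent and controls. No member was called. In the quasi-likelihood test of edgeR, with p adjusted by Benjamini-Hochberg over all 13560 genes, 0 of 26 members had an adjusted p under 0.05, with a background of 0% of all genes tested, and the adjusted p of each member rounded to 1. DESeq2 also called 0 members, with 8 of 18084 genes called (0.0442%), and limma-voom called 0 members and 0% of all genes. At an unadjusted p under 0.05 there were 2 members, Pcdh17 (lower in CFA) and Pcdh20 (higher in CFA), which is 7.69% of 26 against a background of 3.22%. The CPM values of the groups did not overlap for 1 member, Pcdh20, which is 3.85% of 26 against 7.51% of all genes.

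As a list, 11 tested members had a positive and 15 a negative log2 fold change (CFA minus saline). The median was -0.024, and the median of all genes tested was -0.0011. The absolute log2 fold change was under 0.5 for 24 of 26 members, and the exceptions were Pcdh20 and Cdh24. For 19 members the 95% interval of the log2 fold change lay within -1 and 1, so the data leave room for smaller differences in these and for larger ones in the other 7. The summed level of all 35 members was 2256, 2161 and 1999 CPM with CFA and 2094, 2435 and 2306 CPM with saline, and these groups overlapped.

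**Figure D2:**
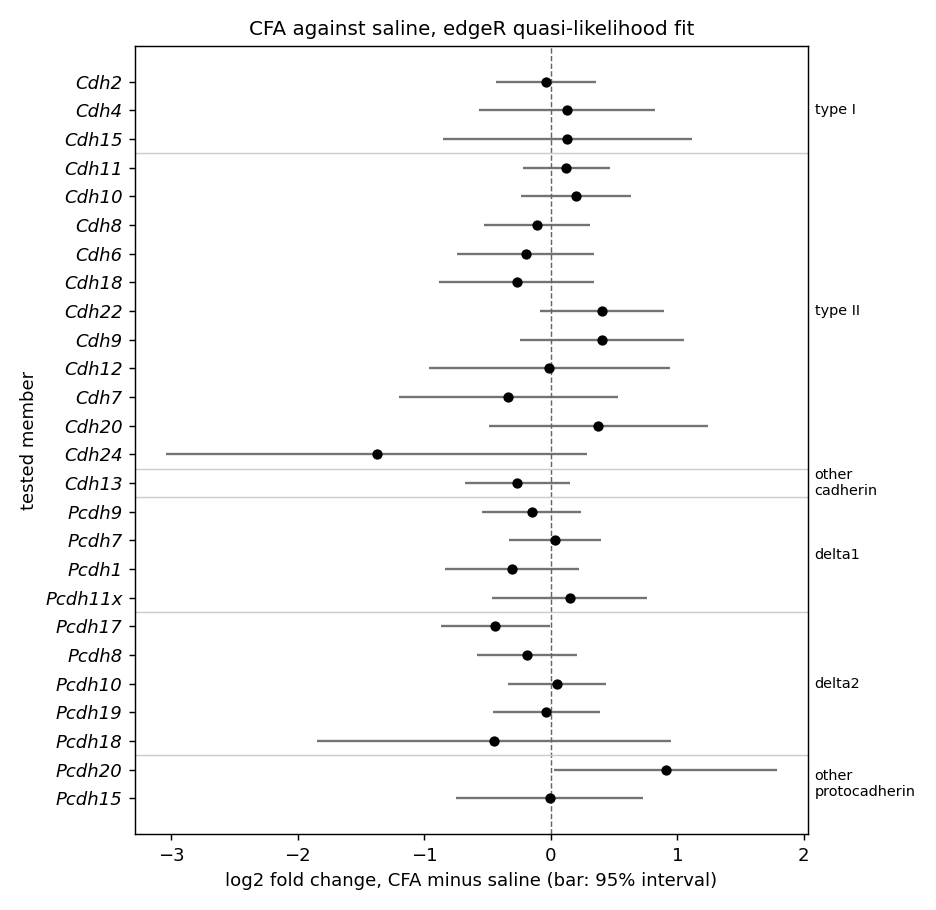
Log2 fold change of each tested member (CFA minus saline; points) with its 95% interval (bars), from the edgeR quasi-likelihood fit across all genes. Intervals are narrow for abundant members such as Cdh11 and Pcdh7 and wide for Cdh24 and Pcdh18; those of Pcdh17 and Pcdh20 lie beside 0, before adjustment for the number of genes.

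Among the type I cadherins, 3 of 5 members were tested, and Cdh2 held most of the level. Cdh2 (N-cadherin), the cadherin found at most excitatory synapses, was at 127, 114 and 94.9 CPM in CFA replicates 1 to 3 and at 96.5, 133 and 115 CPM in saline replicates 1 to 3. The groups overlapped over most of their range, with a log2 fold change of -0.04 ± 0.19 (SE; 95% interval -0.44 to 0.36). Cdh2 accounted for 87.3% of the level per kb of the subfamily. Cdh4 (R-cadherin), a close relative that can bind Cdh2, was at 15.6, 12.5 and 10.9 CPM with CFA and at 7.52, 15.4 and 12.9 CPM with saline. Its lowest value was in saline replicate 1, and the log2 fold change was 0.13 ± 0.33 (95% interval -0.57 to 0.82). Cdh15 (M-cadherin), known from skeletal muscle and cerebellar granule cells, was low and even, at 4.69 ± 0.388 CPM with CFA and 4.29 ± 0.459 CPM with saline (SD, n = 3 each). Cdh1 (E-cadherin), the main cadherin of epithelia, had 3 counts in all, 2 in saline replicate 1 and 1 in saline replicate 2, and Cdh3 (P-cadherin), of epithelia such as skin, had 0.

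The type II cadherins were the largest subfamily, with 11 of 13 members tested and 5 positive and 6 negative log2 fold changes. Cdh11, named after its discovery in osteoblasts and also found in brain, stood above the rest with 39.9% of the level per kb of the subfamily. Its values were 244, 232 and 263 CPM with CFA and 216, 237 and 226 CPM with saline. The groups overlapped only in CFA replicate 2 and saline replicate 2, and the log2 fold change was 0.12 ± 0.16 (95% interval -0.22 to 0.47). Cdh10 followed at 72.5, 68.4 and 78.2 CPM with CFA and 71.0, 73.1 and 46.7 CPM with saline. Only saline replicate 3 stood apart in Cdh10, on the low side, and the log2 fold change was 0.20 ± 0.20 (95% interval -0.24 to 0.64).

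Cdh8, a cadherin expressed in subsets of cortical and striatal neurons, was at 84.2 ± 17.1 CPM with CFA and 90.8 ± 11.2 CPM with saline. Cdh6, another cadherin with regional expression in the brain, was at 35.5 ± 9.98 and 40.8 ± 9.30 CPM, in the same order of groups. Cdh18 was at 23.2 ± 7.78 and 27.9 ± 7.50 CPM. In each of these genes the difference of the means was smaller than the spread between libraries. Cdh9, which acts in the specificity of hippocampal mossy fibre synapses, was at 23.8 ± 7.92 CPM with CFA and 18.0 ± 5.63 CPM with saline, and the groups overlapped. Cdh12 was at 16.4 ± 4.47 and 16.5 ± 11.5 CPM, with its lowest value, 5.01 CPM, in saline replicate 1 and its highest, 28.1 CPM, in saline replicate 2. Cdh7 and Cdh20, on the same chromosome, were lower still. Cdh7 was at 8.45 ± 2.49 and 10.7 ± 5.79 CPM, and Cdh20 at 9.24 ± 2.41 and 7.12 ± 2.91 CPM.

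Cdh22 and Cdh24 were chosen for full values after these had been seen. Cdh22 was at 29.1, 27.1 and 36.5 CPM with CFA and at 27.2, 23.1 and 19.7 CPM with saline. The groups met at CFA replicate 2 and saline replicate 1, and the log2 fold change was 0.41 ± 0.23 (95% interval -0.09 to 0.90). Cdh24 had the largest absolute fold change of the tested members on few counts. Its counts were 10, 10 and 28 in CFA and 11, 54 and 54 in saline libraries, or 0.832, 0.882 and 2.69 CPM against 0.984, 5.01 and 5.47 CPM. Saline replicate 1 lay with the low CFA libraries, so that the groups overlapped, and the log2 fold change was -1.38 ± 0.78 (95% interval -3.05 to 0.29). Leaving out CFA replicate 3 gave -2.14 and leaving out saline replicate 1 gave -1.84, with unadjusted p of 0.0427 and 0.0224 in edgeR's test. The other fits that left out 1 library gave -1.13 to -1.03, the last without saline replicate 3. Their unadjusted p was 0.226 to 0.276 in the same test.

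The type II members known from other cells were near or at 0. Cdh5 (VE-cadherin), the cadherin of endothelial junctions, had 0 counts in all 6 libraries. A count of 0 allows up to 3 counts, or 0.25 to 0.304 CPM per library, and this floor covers counting error only. The 6 endothelial markers summed to 1.15 to 3.58 CPM with CFA and 0.811 to 6.08 CPM with saline, and only Kdr among them passed the filter. Cdh19, known from Schwann cells and other glia of the neural crest, had 0, 11 and 0 counts with CFA and 2, 1 and 13 counts with saline, and did not pass the filter.

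Of the divergent cadherins only Cdh13 was tested. Cdh13 (T-cadherin) is anchored to the membrane by a lipid and has no cytoplasmic tail, so that it does not bind catenins. It was at 321, 210 and 222 CPM with CFA and at 303, 334 and 267 CPM with saline. CFA replicates 2 and 3 were below every saline library, and CFA replicate 1 was within the saline range. The log2 fold change was -0.26 ± 0.20 (SE; 95% interval -0.68 to 0.15). Leaving out CFA replicate 1 moved it to -0.49, with an unadjusted p of 0.0373 in edgeR's test, and leaving out CFA replicate 2 to -0.15. In the fits that left out any library other than CFA replicate 1 the unadjusted p was 0.0957 to 0.511 in the same test. Cdh23, which forms the tip links of hair cells together with Pcdh15, had 5, 32 and 4 counts with CFA and 1, 5 and 0 counts with saline. Its counts came mostly from CFA replicate 2, and it did not pass the filter. Cdh16, a cadherin of kidney, Cdh17, of intestine, and Cdh26, of epithelia, had 0 counts in every library.

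All 4 delta1 protocadherins were tested, with 2 positive and 2 negative log2 fold changes. Pcdh9 held 75.9% of their level per kb and had the highest CPM of all members. It was at 515, 632 and 435 CPM with CFA and at 521, 605 and 631 CPM with saline. The highest and the lowest value were both in CFA libraries, and the log2 fold change was -0.15 ± 0.18 (SE; 95% interval -0.54 to 0.24). Pcdh7, whose tail can bind protein phosphatase, was among the steadiest members, at 160, 187 and 182 CPM with CFA and 178, 188 and 150 CPM with saline. All CFA values lay within the saline range, with a log2 fold change of 0.03 ± 0.17 (95% interval -0.33 to 0.40). Pcdh1 was at 20.7 ± 5.13 CPM with CFA and 25.7 ± 2.29 CPM with saline (SD, n = 3 each). Pcdh11x, an X-linked gene, was at 29.4 ± 9.67 and 26.6 ± 8.89 CPM.

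All 5 delta2 protocadherins were tested, and 4 of them had a negative log2 fold change. Pcdh17, which acts in presynaptic assembly in circuits between cortex and basal ganglia, had the lowest p of the 5. It was at 188, 126 and 130 CPM with CFA and at 169, 193 and 240 CPM with saline. CFA replicates 2 and 3 were below all saline libraries, while CFA replicate 1 lay between saline replicates 1 and 2. The log2 fold change was -0.44 ± 0.20 (SE; 95% interval -0.87 to -0.004), with an unadjusted p of 0.0481 and a Benjamini-Hochberg adjusted p of 1.0 (edgeR, quasi-likelihood). Without 1 library at a time the log2 fold change was -0.65 to -0.29, and the unadjusted p was under 0.05 in 2 of these 6 fits of edgeR. The value nearest to 0 was the one without saline replicate 3. The unadjusted p was also above 0.05 in edgeR with library-size scaling (0.0535) and with the replicate number as a block (0.0653).

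Pcdh8 (arcadlin), whose transcription rises with neuronal activity and which acts in the internalization of Cdh2 at synapses, had a lower mean with CFA than with saline. Its values were 68.6, 58.3 and 65.1 CPM with CFA and 66.2, 84.8 and 67.9 CPM with saline, with saline replicate 2 alone above the rest. The log2 fold change was -0.19 ± 0.19 (SE; 95% interval -0.59 to 0.21). Pcdh10, which acts in the removal of excitatory synapses, was at 141 ± 22.9 CPM with CFA and 137 ± 17.2 CPM with saline (SD, n = 3 each). Up to 1.31% of its exon length is shared with a gene on the opposite strand. Pcdh19, an X-linked gene linked to epilepsy in humans and a partner of Cdh2, was at 75.5 ± 14.0 and 77.4 ± 11.8 CPM. Pcdh18 was near the lower end of the tested members, at 2.27 ± 1.41 and 3.12 ± 0.577 CPM.

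Among the remaining protocadherins, Pcdh20 was the only member without overlap between the groups. It was at 10.1, 8.20 and 12.5 CPM with CFA and at 2.95, 5.84 and 7.60 CPM with saline, from 121, 93 and 130 against 33, 63 and 75 counts. The log2 fold change was 0.91 ± 0.41 (SE; 95% interval 0.03 to 1.79), with an unadjusted p of 0.0441 and a Benjamini-Hochberg adjusted p of 1.0 (edgeR, quasi-likelihood). The 3 CFA libraries were all higher, but the distance from the lowest CFA to the highest saline library was small against the spread within the saline group. The low value was in saline replicate 1, the library with the most striatal marker RNA. Without it the log2 fold change was 0.61, with an unadjusted p of 0.137 in edgeR's test, and over all 6 fits that left out 1 library it was 0.61 to 1.22. The unadjusted p of edgeR's test was under 0.05 in 2 of these 6 fits and highest, at 0.156, without CFA replicate 3. Pcdh15, known from hair cells and oligodendrocyte precursors, was at 7.90, 11.7 and 8.46 CPM with CFA and 7.07, 9.09 and 12.2 CPM with saline. Its groups overlapped over most of their range, with a log2 fold change of -0.01 ± 0.35 (95% interval -0.75 to 0.73). Pcdh12, an endothelial protocadherin, had 0 counts in every library, as Cdh5 did.

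**Figure D3:**
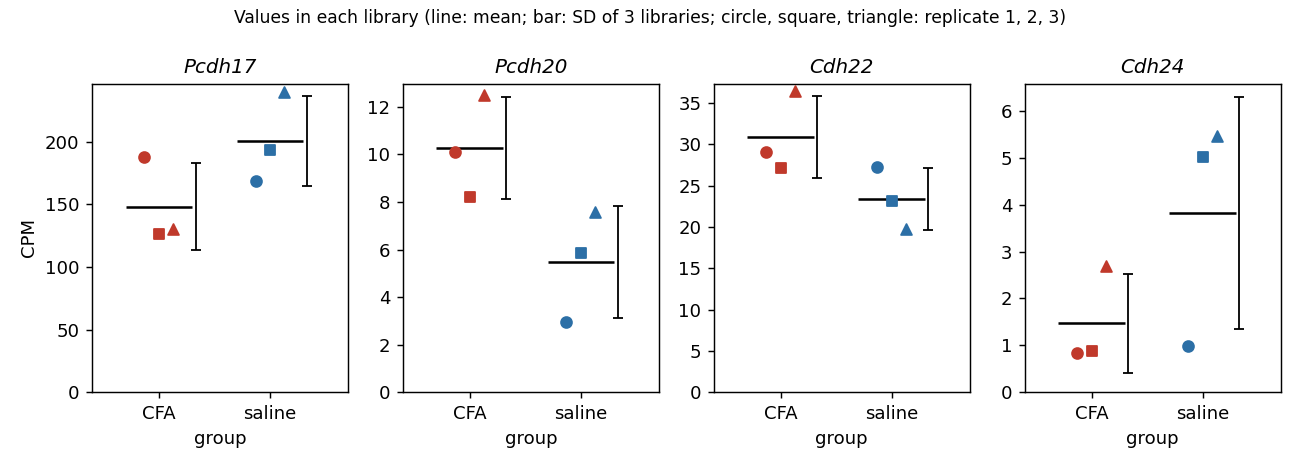
CPM of Pcdh17, Pcdh20, Cdh22 and Cdh24 in each library, with the mean (line) and SD (bar) of the 3 libraries of each group; the marker shape gives the replicate. Pcdh20 is the only panel without overlap, with CFA libraries between 8.20 and 12.5 CPM and saline libraries between 2.95 and 7.60 CPM.

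Pcdh17 and Pcdh20 lie in the same direction along chromosome 14 from Pcdh8, 3.93 Mb apart, on opposite strands. As they were the members with an unadjusted p under 0.05, with opposite signs, the 250 bases before their RefSeq starts are shown here (build GRCm38.p6, 5′ to 3′ on the strand of the gene). Both starts match the 5′ end of the gene model in the count table. The window of Pcdh17 is chr14:84443313-84443562 on the plus strand and that of Pcdh20 is chr14:88471397-88471646 on the minus strand. Capitals mark CCAAT or its reverse complement ATTGG, the letters of the CCAAT box of many promoters.
Pcdh17: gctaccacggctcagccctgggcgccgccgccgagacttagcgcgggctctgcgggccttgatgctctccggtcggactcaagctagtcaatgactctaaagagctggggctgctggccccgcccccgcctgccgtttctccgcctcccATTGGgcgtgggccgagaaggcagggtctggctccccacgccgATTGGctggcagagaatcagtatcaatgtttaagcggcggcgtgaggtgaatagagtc
Pcdh20: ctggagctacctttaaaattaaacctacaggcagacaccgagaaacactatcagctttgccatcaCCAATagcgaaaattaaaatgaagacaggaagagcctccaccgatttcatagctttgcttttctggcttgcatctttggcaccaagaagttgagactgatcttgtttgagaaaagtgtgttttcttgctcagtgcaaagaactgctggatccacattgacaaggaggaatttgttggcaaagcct

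The 2 windows differed in base composition. The Pcdh17 window held 21 CpG dinucleotides and 64.8% G and C, and the Pcdh20 window held 3 CpG and 42.4% G and C. Among 32817 windows of the same length before RefSeq starts, 85.2% had as many CpG as Pcdh17 or fewer, and 37.8% as many as Pcdh20 or fewer. CCAAT, searched on both strands, was found at 2 places in Pcdh17 and at 1 in Pcdh20. It was in 33.8% of all windows and in 14 of the 23 windows of tested members, which cover 20 of the 26 genes. Among these 14, Pcdh9 was counted at 2 starts 10 bases apart, whose windows share most of their bases. Cdh9 was counted at a start far upstream of its gene model. TATAAA, searched likewise, was in neither window, in 12.4% of all windows and in those of Pcdh8 and Pcdh15 among the tested members. These matches describe letters, and binding was not measured.

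Variation between libraries was larger for some members than for others. The coefficient of variation over the 6 libraries ran from 6.81% (Cdh11) to 80.6% (Cdh24), with a median of 21.7%. Pcdh7 (9.05%) and Cdh15 (9.80%) were also steady, and Cdh12 (47.6%), Cdh7 (43.6%) and Pcdh20 (42.1%) were among the most variable. Saline replicate 1 had the lowest value for 8 of 26 members, among them Cdh4, Cdh12, Cdh20 and Pcdh20, and CFA replicate 2 for 7, among them Cdh6, Cdh13 and Pcdh17. Saline replicate 2 had the lowest value for none of them. The mean log2 CPM of the tested members was 5.13, 4.98 and 5.02 in CFA replicates 1 to 3 and 4.81, 5.21 and 5.19 in saline replicates 1 to 3, so that the lowest and the highest library were both saline.

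**Figure D4:**
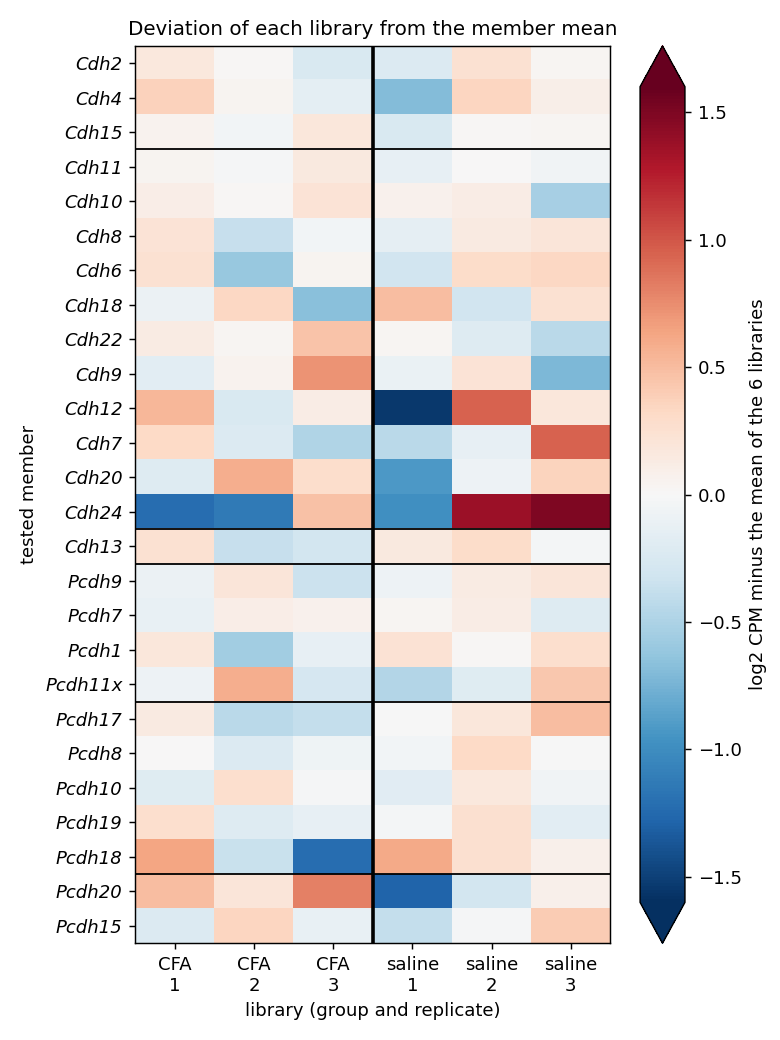
Log2 CPM of each tested member in each library minus the mean of the 6 libraries (red above, blue below the mean), with CFA libraries to the left of the vertical line and subfamilies divided by horizontal lines. Saline replicate 1 is the lowest library for 8 members, and Cdh12, Cdh24, Pcdh18 and Pcdh20 show the deepest colours.

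Genes that work with cadherins were read from the same fit. Of 86 genes in 4 lists of partners and relatives 75 were tested, 0 were called by edgeR's quasi-likelihood test and 1 had an unadjusted p under 0.05, which is 1.33% against the background of 3.22%. In the list of catenins, junction linkers and related genes, all 20 genes were tested, with 6 positive and 14 negative log2 fold changes and a median of -0.09. Their summed level was 1540 to 1650 CPM with CFA, and with saline it was 1640 CPM in replicates 1 and 2 and 1830 CPM in replicate 3, the library that stood apart. The lowest p in this list belonged to Pkp4, a catenin relative, at 44.7 ± 9.10 CPM with CFA and 59.6 ± 14.3 CPM with saline (SD, n = 3 each). Mllt4 (the older symbol of Afdn), the actin-binding protein afadin of adherens junctions, was at 142 ± 16.5 and 173 ± 29.0 CPM.

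Of the processing and surface partners of cadherins, which include proteases, phosphatases, kinases and small GTPases, 25 of 27 were tested. They had 12 positive and 13 negative values and a median of -0.005. Aph1b, a subunit of the gamma-secretase that cleaves cadherins within the membrane, was the gene with an unadjusted p under 0.05. It was at 48.2, 43.6 and 46.1 CPM with CFA and at 37.6, 24.7 and 34.2 CPM with saline, without overlap. The groups also did not overlap in other partner genes, among them Ctnna1, Pcsk5 and Ube3a, and in 7.51% of all genes tested. The log2 fold change of Aph1b was 0.52 ± 0.22 (SE), with an unadjusted p of 0.0302 and an adjusted p of 1.0 in edgeR's test. Ptprt, a receptor phosphatase that binds cadherins, was at 24.5 ± 6.60 and 35.1 ± 11.2 CPM (SD, n = 3 each), and these groups overlapped.

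All 17 signalling partners of protocadherins were tested, with 11 positive and 6 negative values and a median of 0.02. Ube3a, a ubiquitin ligase, was at 185 ± 31.0 CPM with CFA and 226 ± 13.6 CPM with saline, without overlap. Fmr1, an RNA-binding regulator of translation, was at 66.0 ± 2.90 and 79.7 ± 25.8 CPM. Of the large cadherins and calsyntenins, 20 of 22 symbols were found in the table and 13 were tested, with 7 positive and 6 negative values and a median of 0.01. Clstn3, a postsynaptic calsyntenin, was at 723 ± 91.9 CPM with CFA and 622 ± 9.93 CPM with saline. Dchs1, a large cadherin of planar polarity, was at 0.822 ± 0.817 and 1.75 ± 1.16 CPM, on 0 to 32 counts per library.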

How the data were processed

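The authors deposited counts of reads (whole numbers, not normalized) for 24421 genes in 6 libraries, beside exon coordinates and lengths. The submitters' processing notes name featureCounts 2.0.1, HISAT2 2.2.1, edgeR 3.32.1, SAMtools 1.13, Trim Galore and the build mm10. Strand and multiple-mapping settings: not given in the sources used here. Per the labels' protocols, Smart-seq V4 cDNA (9 PCR cycles, 300 ng) entered Nextera XT, which keeps no strand.

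All genes were fitted together with edgeR 4.0.16 (R 4.3.3): TMM scaling, filterByExpr, quasi-likelihood test of CFA against saline with treatment as the only term, Benjamini-Hochberg adjustment and a threshold of 0.05. SEs and 95% intervals came from the quasi-likelihood F statistic. CPM used TMM factors, and log2 CPM a prior count of 2. With 3 against 3 libraries an exact two-sided permutation test cannot give a p below 0.1, and none was used. To look for a library deposited more than once, each pair was compared with counting noise (chi-square), and no pair agreed within it; this says nothing of separate mice. The fit was tested on simulated data.

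All 35 members are named. Full values were given for tested members with an unadjusted p under 0.05 or no overlap, and for the 2 highest per exon length in each subfamily; in each partner list the 2 genes with the lowest p were named. The members and lists were chosen with earlier results of these data known. Symbols missing from the table were looked up among RefSeq synonyms (GRCm38.p6), and the promoter sequences are from RefSeq. Alternatives were DESeq2 1.42.0, limma-voom (limma 3.58.1), RLE and library-size scaling, no low-count filter, at least 5 CPM in at least 3 libraries, a threshold of 0.1, each library left out in turn and the replicate number as a block.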

Additional observations from a re-analysis of the deposited data

How the results depend on the processing

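The count of 0 members called was the same in all alternatives run. Over all genes, 8 were called with DESeq2, 9 without a low-count filter and 6 with the replicate number as a block, against 0 otherwise; leaving out 1 library at a time gave 0 to 5, the 5 without saline replicate 3. The cause was not tested. With the block 0 members were called. Same-numbered libraries did not deviate together over all genes (correlations of -0.0793, 0.0249 and -0.0692 for numbers 1 to 3). A weak shared effect need not show in so few libraries, so whether the numbers pair the samples is not known. The median log2 fold change of tested members was -0.034 to -0.010 under other scalings, filters and tools and -0.152 to 0.0724 with 1 library left out, moves below the SD of 0.168 of the members' mean level within groups.

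Of 13 members followed through 168 values in alternatives, 11 values changed sign, all in 4 members with log2 fold changes near 0. Pcdh15 was at 0.014 with limma-voom, 0.0029 with the replicate block and -0.206 to 0.213 with 1 library left out. With 1 library left out, Cdh2 was at -0.152 to 0.0832, Cdh4 at -0.12 to 0.357 and Pcdh7 at -0.0554 to 0.105. The filter of at least 5 CPM removed 3 tested members (23 left). Low counts limit the precision for Cdh24 and Pcdh18. Of the 9 members that did not pass the filter, 6 had 0 counts in all libraries, and the other 3 entered the fit without a low-count filter (29 members) and were not called.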

Other observations

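The members were spread over 11 chromosomes in the gene models of the table (mm10), and some genes that lie near each other differed in level. Chromosome 8 held 8 members. Cdh11 (102632995 to 102785111), at 56.1 CPM per kb, lies 1.32 Mb from Cdh5 (104101625 to 104144502), which had 0 counts, and Cdh16, Cdh3 and Cdh1 further along the chromosome had 0, 0 and 3 counts in all. On chromosome 15, all 5 members (Cdh6, Cdh9, Cdh10, Cdh12 and Cdh18) passed the filter within 10.4 Mb, at 2.92 to 20.1 CPM per kb. Chromosome 14 held 5 members. Among them Pcdh9 (93013700 to 93890669) was at 89.3 CPM per kb, and Pcdh20 (88464747 to 88471396), 4.54 Mb away, at 1.50. Pcdh8 and Pcdh17, 4.67 Mb apart, were alike at 17.1 and 18.3 CPM per kb.

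Exon number separated the delta protocadherins from the classical cadherins, while the share of the longest exon overlapped. The 9 delta protocadherins had 3 to 8 exons, and the longest exon made up 39.3% to 72.7% of the exon length, while the 18 classical cadherins had 11 to 16 exons, with a longest exon of 17.9% to 63.0%. The tested members spanned 4.54 kb (Pcdh8) to 1040 kb (Cdh13) of the genome, and both ends of this range were among the more abundant members, at 17.1 and 121 CPM per kb.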
